A study of Mus musculus with 4 samples.

Results

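Expression of 10 genes of the Notch pathway was compared between neurospheres labelled E2f4 knockout and wild-type neurospheres. The genes were the receptors Notch1, Notch2 and Notch3, the ligands Dll1, Dll3 and Jag1, and the target genes Hes1, Hes5, Hey1 and Heyl. They were taken from 18193 genes named on the arrays, as every probe set whose platform annotation gave only that gene's symbol. This found 18 probe sets among 35041, 17 of them on the MOE430A array and 1, for Jag1, on MOE430B. No probe set that named a member together with other genes was found.

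Neurospheres are free-floating aggregates that neural stem and progenitor cells form in culture. There was 1 RNA sample labelled as knockout of E2f4, a transcription factor that binds pocket proteins and keeps cell-cycle genes off, and 1 wild-type RNA sample. Both came from forebrain (ventral telencephalon) neurospheres of E12.5 mouse embryos, and each RNA was run on 1 MOE430A and 1 MOE430B array, 4 arrays in all. The E2f4 allele, the number of embryos behind each RNA and their strain are not given in the sources used here. With 1 sample per genotype there was no test, no error across samples and no p-value, and what differs between the samples cannot be assigned to genotype.

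Notch signalling passes between touching cells. A ligand of the Delta or Jagged family on one cell binds a Notch receptor on its neighbour, the receptor is cut by ADAM proteases and gamma-secretase, and its freed intracellular part joins the DNA-binding protein RBPJ to switch on genes of the Hes and Hey families. These encode bHLH repressors that hold back proneural genes, which keeps cells of the embryonic forebrain in a progenitor state, while neighbours that express Dll1 go on to become neurons.

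Values are MAS5 signals, a linear brightness per probe set. A ratio is the log2 of knockout over wild type within 1 array design, after subtracting the median of all measured probe sets of that design. The floor of a design, 735 on MOE430A and 942 on MOE430B, was the mean of its arrays' median signals, and probe sets that reached it in both samples are called measured. Of the 18 probe sets, 13 were measured, 1 passed the floor only in the knockout sample, 1 only in the wild type and 3 in neither. All 10 genes had at least 1 measured probe set. Signals of different probe sets are not comparable as levels, since each has its own probes.

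The Gapdh 3'/5' signal ratio, which moves with RNA degradation, was 0.898 in the knockout sample and 0.862 in the wild type on MOE430A, and 0.799 in the knockout sample and 0.948 in the wild type on MOE430B. The E2f4 probe set read 1535 in the sample labelled knockout and 1812 in the wild type. Nothing in the sources used here places it inside or outside a deleted region, so it checks no label. All 14 marker genes of neural progenitors that were looked for were measured, among them Nes and Sox2, and so were all 14 of neurons. Of 7 red blood cell markers, 3 were measured as well. The brightest Hbb-y probe set, for an embryonic globin, read 69939 in the knockout sample and 89828 in the wild type. Where the globin RNA came from was not tested.

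None of the 10 genes differed by 2-fold or more. Among all 10174 measured genes, 0.531% were higher in the knockout sample by 2-fold or more and 0.482% were lower by that size. At a smaller size, 0.5 on the log2 scale, Heyl was higher and Hes5 lower, 1 member each way, where 5.33% of measured genes were that much higher and 5.57% that much lower. The median log2 ratio of the 10 genes was -0.097, against -0.0013 for all measured genes. Of the 10, 7 were lower in the knockout sample, where 50.2% of measured genes were lower by any size. Ratios of 6 of them lay within 0.2 of 0, near the 53.9% of all measured genes that did so.

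**Figure D1:**
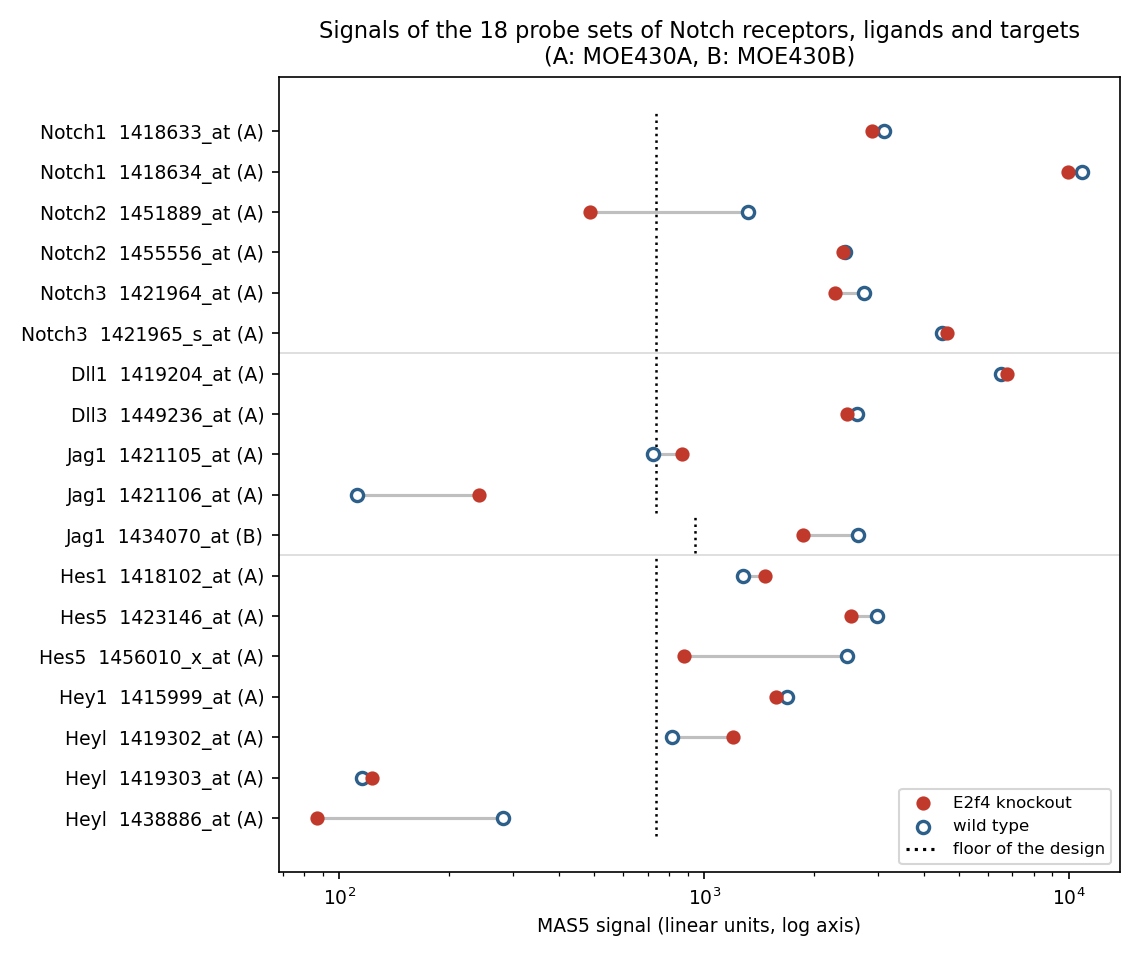
MAS5 signal on a log axis of each of the 18 probe sets, with the knockout sample as a filled point and the wild type as an open point, ordered as receptors, ligands and targets. Dotted lines mark the floor of the design. The wide gaps among probe sets above the floor in at least 1 sample are those of Hes5 1456010_x_at and Notch2 1451889_at, both lower in the knockout sample.

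Among the receptors, Notch1, the main Notch receptor of embryonic neural progenitors, had concordant probe sets. Probe set 1418634_at read 9927 in the knockout sample and 10824 in the wild type, and 1418633_at read 2881 in the knockout sample and 3104 in the wild type. The log2 ratios were -0.12 and -0.10, so both were slightly lower in the knockout sample. Their gap of 0.017 was small beside the median gap of 0.29 between probe sets of a gene on MOE430A, over 2130 genes with more than 1 measured probe set. Of measured MOE430A probe sets, 30.8% were as low as 1418634_at or lower.

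Notch3, a receptor found in neural progenitors and in the mural cells of vessels, had probe sets on either side of 0. Probe set 1421964_at read 2277 in the knockout sample and 2741 in the wild type, a log2 ratio of -0.26. Probe set 1421965_s_at read 4640 in the knockout sample and 4499 in the wild type, a log2 ratio of 0.048. Their gap of 0.31 was reached or passed by 46.0% of genes with more than 1 measured probe set. The mean was -0.11, and it took the sign of whichever probe set was used alone.

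Notch2, a receptor with a structure close to that of Notch1, had probe sets that disagreed. Probe set 1455556_at read 2396 in the knockout sample and 2427 in the wild type, a log2 ratio of -0.016. Probe set 1451889_at read 487 in the knockout sample, under the floor, and 1322 in the wild type, so the knockout sample was at least 1.80-fold lower. Of 815 MOE430A probe sets of a named gene that passed the floor only in the wild type, 5.15% had a bound of that size or more. The Notch2 value of -0.016 rested on the first probe set, and it was -0.73 with a lower floor, the 30th percentile, which admits the other.

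Because the knockout label names E2f4, the promoters were searched for the E2F words TTTCCCGC, TTTGGCGC, TTTCGCGC and TTTGCCGC on both strands. RefSeq promoter windows of 300 bases, 250 before to 50 after a start site on GRCm38.p6, were at hand for 7 of the 10 genes, with 8 windows because Dll1 had 2. Among them Notch2 alone held a match, and 2.26% of 32851 windows of that length held at least 1. The match is shown in capitals, at bases 137 to 144 of the window counted from its 5' end. It reads TTTCCCGC on the other strand.
Notch2 promoter, chr3:98013288-98013587, plus strand: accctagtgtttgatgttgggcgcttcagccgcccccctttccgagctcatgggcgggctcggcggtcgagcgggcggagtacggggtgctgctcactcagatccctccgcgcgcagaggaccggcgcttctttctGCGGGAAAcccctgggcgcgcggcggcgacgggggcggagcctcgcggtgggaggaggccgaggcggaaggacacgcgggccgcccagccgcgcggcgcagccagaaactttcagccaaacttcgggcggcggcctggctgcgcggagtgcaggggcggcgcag
The words are a description of the window and say nothing on binding. The measured Notch2 probe set was the member probe set closest to 0.

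The Delta-type ligands stayed near equal between the samples. Dll1, the ligand that newborn neurons present to neighbouring progenitors, read 6781 in the knockout sample and 6506 in the wild type, a log2 ratio of 0.063. Dll3, a divergent Delta family member that acts within the cell and does not activate receptors on neighbours, read 2461 in the knockout sample and 2625 in the wild type, a log2 ratio of -0.090. Each rested on 1 probe set. Both lay within the middle part of their array, where 39.6% of measured MOE430A probe sets were at least as high as Dll1 and 35.7% at least as low as Dll3.

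Jag1, a Jagged-type ligand that also activates Notch receptors, differed between its probe sets. On MOE430B, 1434070_at read 1864 in the knockout sample and 2638 in the wild type, a log2 ratio of -0.50, or 1.41-fold lower in the knockout sample. On MOE430A, 1421105_at read 872 in the knockout sample and 726 in the wild type, just under the floor, so the knockout sample was at least 1.19-fold higher. The last one, 1421106_at, was below the floor in both, at 242 in the knockout sample and 112 in the wild type. The measured probe set was therefore lower in the knockout sample, and the others brighter there. Of measured probe sets on MOE430B, 11.3% were as low as this one or lower. The Jag1 value was 0.29 with no floor, where all 3 probe sets entered.

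**Figure D2:**
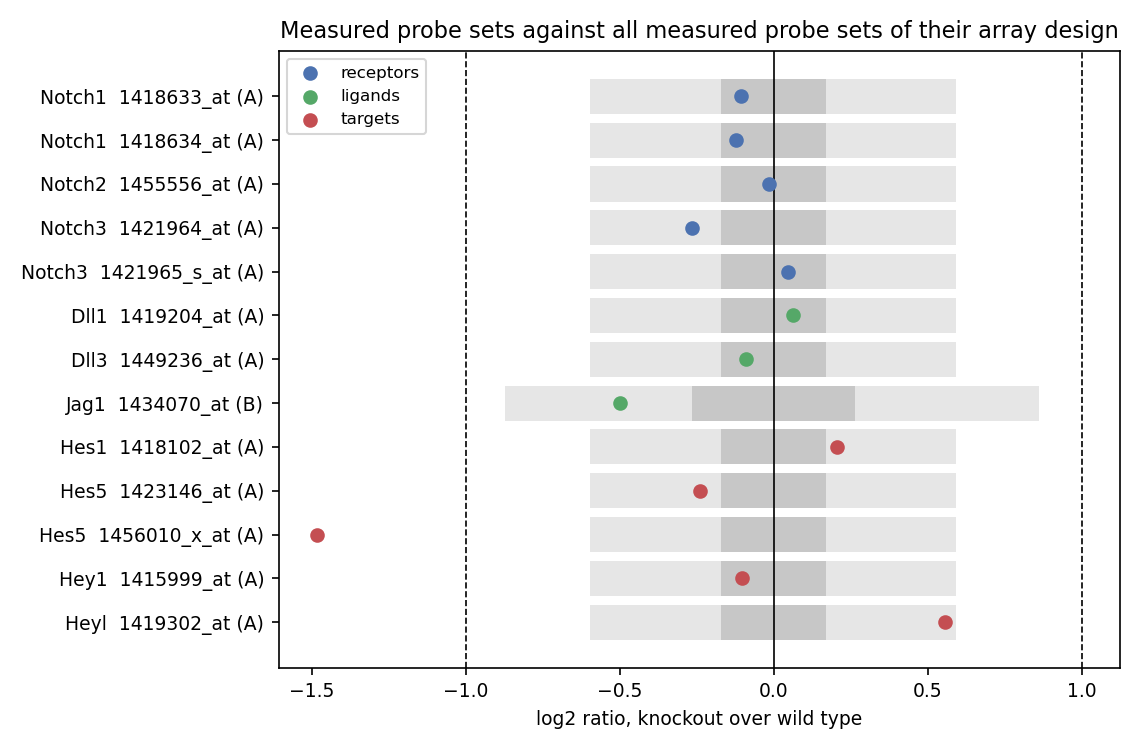
Log2 ratio, knockout over wild type, of the 13 measured probe sets, coloured by role. Grey bars give the central 50% (dark) and 95% (light) of all measured probe sets of the same array design, and dashed lines mark 2-fold. Hes5 1456010_x_at, at -1.48, is the 1 probe set outside the light bar.

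At the floor used, target gene values ran from -0.86 to 0.56 and receptor values from -0.11 to -0.016. The ends of the target range were Hes5 and Heyl, and the contrast depended on the floor. With the floor at the 70th percentile, the measured targets were Hes5 at -0.24 and Hey1 at -0.10. With it at the 30th percentile, the receptor Notch2 was at -0.73. Hes1, a repressor of proneural genes needed to keep neural stem cells, read 1470 in the knockout sample and 1276 in the wild type on its 1 probe set. Its log2 ratio was 0.21, and 20.9% of measured MOE430A probe sets were at least as high. Hey1, a related repressor also active in vessels, read 1570 in the knockout sample and 1691 in the wild type, a log2 ratio of -0.10. Neither stood apart from the bulk of the array.

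Hes5, which acts together with Hes1 and is a widely used readout of Notch activity in neural progenitors, was the lowest member. Probe set 1456010_x_at read 881 in the knockout sample and 2468 in the wild type, a log2 ratio of -1.48, or 2.79-fold lower. Of 10402 measured MOE430A probe sets, 1 had a lower ratio. It was the 1 member probe set of 12 measured on MOE430A that was at least 2-fold lower, where 0.163% of measured probe sets were. The knockout signal was also close to the floor of 735.

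The other Hes5 probe set did not show that size. Probe set 1423146_at read 2521 in the knockout sample and 2984 in the wild type, a log2 ratio of -0.24, or 1.18-fold lower. The probe sets therefore had the same sign but a gap of 1.24, which 1.13% of genes with more than 1 measured probe set reached or passed. The mean was -0.86, and 0.953% of measured genes were as low or lower. Affymetrix gives the ending _x_at to probe sets whose probes can also match other transcripts, and without probe sets of that and like endings (_s_at, _a_at) the Hes5 value was -0.24. Whether the larger difference belongs to Hes5 was not tested.

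The Hes5 promoter is the known example of direct Notch control, and its window was searched for the RBPJ core TGGGAA and the longer form GTGGGAA, which contains it. Of the 8 member windows, that of Hes5 alone held either, with 2 matches to the longer form, shown in capitals at bases 25 to 31 (on the minus strand) and 168 to 174 (on the plus strand).
Hes5 promoter, chr4:154960673-154960972, plus strand: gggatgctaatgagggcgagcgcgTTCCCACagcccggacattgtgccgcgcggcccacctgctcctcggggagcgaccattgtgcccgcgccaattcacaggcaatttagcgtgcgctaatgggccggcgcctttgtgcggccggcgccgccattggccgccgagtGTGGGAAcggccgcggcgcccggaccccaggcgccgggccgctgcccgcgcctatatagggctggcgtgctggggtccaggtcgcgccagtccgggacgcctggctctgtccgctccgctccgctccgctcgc
Among 32851 windows of the same length, 6.38% held GTGGGAA on either strand and 0.256% held it more than once. For the shorter TGGGAA the shares were 25.6% and 3.79%. The Hes1, Hey1 and Heyl windows were not analysed here.

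Heyl, a Hey family repressor best known from vascular smooth muscle, was the highest member. Probe set 1419302_at read 1196 in the knockout sample and 815 in the wild type, a log2 ratio of 0.56, or 1.47-fold higher, and 3.16% of measured MOE430A probe sets were at least as high. The wild-type signal was just above the floor. The remaining probe sets were below the floor in both samples, 1419303_at at 123 in the knockout sample and 115 in the wild type, and 1438886_at at 86.8 in the knockout sample and 281 in the wild type. With no floor the mean over all 3 was -0.36, opposite in sign.

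Marker genes of mural cells, which carry Notch3 and Heyl in many tissues, were set beside these values. Of 11, 5 were measured and 4 of these were higher in the knockout sample, where 5071 of all 10174 measured genes were higher. The median of the 5 was 0.29. The exception was Notch3 itself. Pdgfrb, Cspg4, Kcnj8, Anpep, Tagln and Myh11 were below the floor in both samples. The summed signal of all mural marker probe sets was 16219 in the knockout sample and 15371 in the wild type on MOE430A, and 5183 in the knockout sample and 4232 in the wild type on MOE430B. The MOE430A sum includes the Notch3 probe sets. Sums of marker lists, here and below, also count probe sets under the floor. The part of mural cells in the Heyl value was not tested. In bulk RNA a change in the number of cells of a type and a change in RNA per cell cannot be told apart.

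Beyond the 10 genes, 78 names of other pathway genes were listed by role, of which 71 were on the arrays and 53 were measured. Their median log2 ratio was -0.035, with 20 higher and 33 lower in the knockout sample and none at 2-fold. Among all measured genes, 50.2% were lower by any size. By the size of 0.5, 3 of the 53 were lower and 0 higher. The shares of all measured genes past that size were 5.57% lower and 5.33% higher. The list of other pathway genes was thus centred near the median of all genes.

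Within it, the other receptors and ligands, some of them noncanonical, lay on the lower side. All 7 measured genes of 10 had lower signals in the knockout sample, where 50.2% of all measured genes were lower. Their median was -0.21. Dlk1, a Delta-like protein that lacks the receptor-binding motif of the canonical ligands and is best known as an imprinted gene, read 6812 in the knockout sample and 10034 in the wild type, a log2 ratio of -0.56. Cntn1, a neuronal adhesion molecule reported as a Notch ligand, read 1731 in the knockout sample and 2539 in the wild type, a log2 ratio of -0.55. The remaining 5, named after their values were seen, were Egfl7, Jag2, Dlk2, Dner and Mfap2, between -0.39 and -0.10. Notch4 and Dll4, a receptor and a ligand of endothelial cells, were below the floor in both samples.

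Several of these genes belong to neurons or vessels, so those markers were read beside them. Of 14 neuron markers, 13 were lower in the knockout sample, where 50.2% of all measured genes were lower. The neuron list median was -0.23, and the summed signal on MOE430A was 161497 in the knockout sample and 185773 in the wild type. On MOE430B the neuron sum was 60655 in the knockout sample and 75868 in the wild type. Of 15 endothelial markers, which include Egfl7, 6 were measured, 3 higher and 3 lower, with a median of -0.062, and 5 were below the floor in both samples, Pecam1, Cdh5, Tek, Tie1 and Erg. The remaining 4 passed the floor in 1 sample, Flt1, Emcn and Sox17 in the knockout sample and Sox18 in the wild type. The endothelial sum was 13192 in the knockout sample and 14160 in the wild type on MOE430A, and 2523 in the knockout sample and 306 in the wild type on MOE430B. Most of the MOE430B sum was 1 probe set of Flt1, a VEGF receptor, at 2226 in the knockout sample and 244 in the wild type. It gave a bound of 2.36-fold on the higher side. Flt1 had 4 probe sets, and none of them reached the floor in both samples.

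Markers of other cell types were read in the same way, beside all 10174 measured genes, of which 5071 were higher and 5103 lower. All 3 measured red blood cell markers were lower in the knockout sample, with the median at -0.51 and a summed MOE430A signal of 214986 in the knockout sample and 279641 in the wild type. All 3 measured oligodendrocyte lineage markers were lower as well, with the median at -0.43 and an MOE430A sum of 9433 in the knockout sample and 9953 in the wild type. Of astrocyte markers, 4 of 5 measured were higher (median 0.061), and of microglia markers 1 of 3 (median -0.25). The part of these cell types in the ligand values was not tested.

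Genes that process ligands and receptors had a median of -0.035 over 25 measured of 30 listed. Of the 25, 10 were higher and 15 lower, where 50.2% of all measured genes were lower. The farthest from 0 was Dtx4, a Deltex-type ubiquitin ligase, at -0.56 from probe sets at -1.02 and -0.11. Lfng, a Fringe glycosyltransferase that alters which ligands a receptor answers to, was chosen after its values were seen. Its brighter probe set read 1391 in the knockout sample and 463 in the wild type, which made the knockout sample at least 1.89-fold higher. Aak1, a kinase that phosphorylates the Notch inhibitor Numb, was at 0.097 over 4 measured probe sets. A further Aak1 probe set on MOE430B read 2005 in the knockout sample and 511 in the wild type, a bound of 2.13-fold on the higher side. The Lfng relatives Mfng and Rfng, also chosen after their values were seen, were at 0.13 and 0.16. The Rfng probe sets lay on either side of 0, at -0.046 and 0.36. Going the other way from Lfng, 1 Neurl1a probe set on MOE430B read 170 in the knockout sample and 1584 in the wild type. That gave a bound of 1.68-fold on the lower side, while the measured Neurl1a probe set was at -0.035.

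Genes of the nuclear complex and co-repressors had a median of -0.0050 over 15 measured of 22 listed. The farthest were Hdac2, a histone deacetylase, at 0.31, Snw1, a co-activator of the RBPJ complex, at 0.26 and Tle1, a Groucho-type co-repressor of Hes proteins, at -0.22. Rbpj itself, chosen after its values were seen, was at 0.10 from probe sets between -0.17 and 0.30. No gene of this group reached 0.5.

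Other targets and Hes-related factors had a median of -0.011 over 6 measured of 16 listed. Nrarp, a target that feeds back to restrain the pathway, was at -0.28, from probe sets at -0.41 and -0.15. Fabp7, a fatty acid binding protein of radial glia, was at 0.26 and Sox9, a progenitor and glial factor, at 0.22. Hes2, Hes3, Hes7 and Hey2 were below the floor in both samples, so of the Hes and Hey genes outside the members Hes6 alone was measured, at -0.029. Nrarp was thus lower in the knockout sample, like Hes5. Fabp7 and Sox9 were higher, like Hes1 and like Heyl at the floor used, though Heyl was at -0.36 with no floor. Ccnd1 and Nfia, also among the 6, lay nearer 0 like Hes6, at 0.0073 and -0.096. The Nfia probe sets ran from -0.72 to 0.31.

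**Figure D3:**
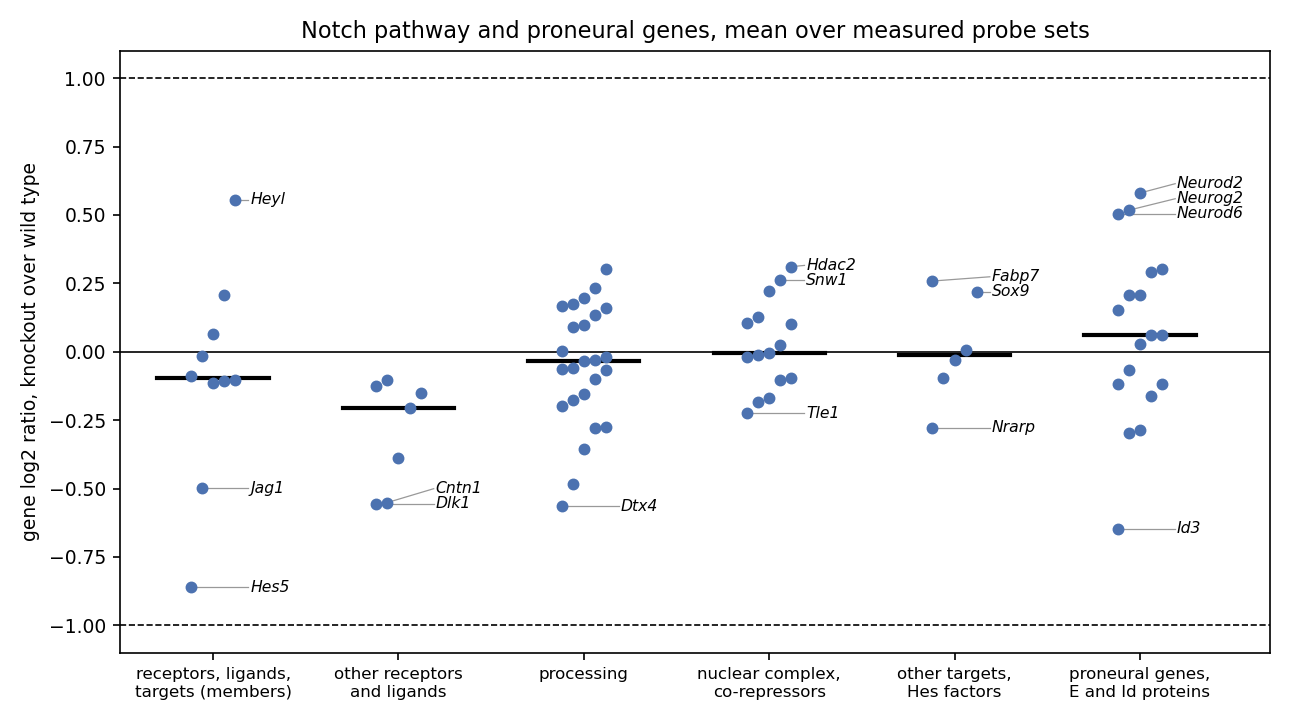
Log2 ratio, knockout over wild type, of each measured gene (mean over its measured probe sets), by role in the pathway; thick lines are medians and dashed lines mark 2-fold. Hes5, at -0.86, lies lowest of all genes plotted, and the 7 other receptors and ligands all lie below 0.

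Proneural genes, which Hes repressors hold back, and their E protein and Id partners had a median of 0.062 over 18 measured of 24 listed. Of the 18, 11 were higher and 7 lower, where 50.2% of all measured genes were lower. Id3, an inhibitor of proneural bHLH proteins, was lowest at -0.65, with 1023 in the knockout sample and 1605 in the wild type. Neurod2, Neurog2 and Neurod6, bHLH factors of developing neurons, were at 0.58, 0.52 and 0.50, so 3 of 18 were higher by at least 0.5, where 5.33% of all measured genes were. Neurod1, a related factor named after its values were seen, was at -0.12. Neurog2 read 5514 in the knockout sample and 3861 in the wild type. None of the 18 reached 2-fold, and without the E and Id proteins and the Cbfa2t co-repressors, a split made after the values were seen, the median was -0.068 over 9 measured genes with 4 higher.

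Marker genes of neural progenitors, the cells in which Hes1 and Hes5 act, were higher in the knockout sample in 10 of 14 cases, with a median of 0.067. Among all 10174 measured genes, 5071 were higher. The progenitor list includes Hes5 itself, its lowest member. The summed signal was 194538 in the knockout sample and 186329 in the wild type on MOE430A. Sox1, also lower, was at -0.61, from probe sets that disagreed in size, at -1.09 and -0.14. Mki67, a marker of dividing cells, was at 0.31. Both genes were named after their values were seen.

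**Figure D4:**
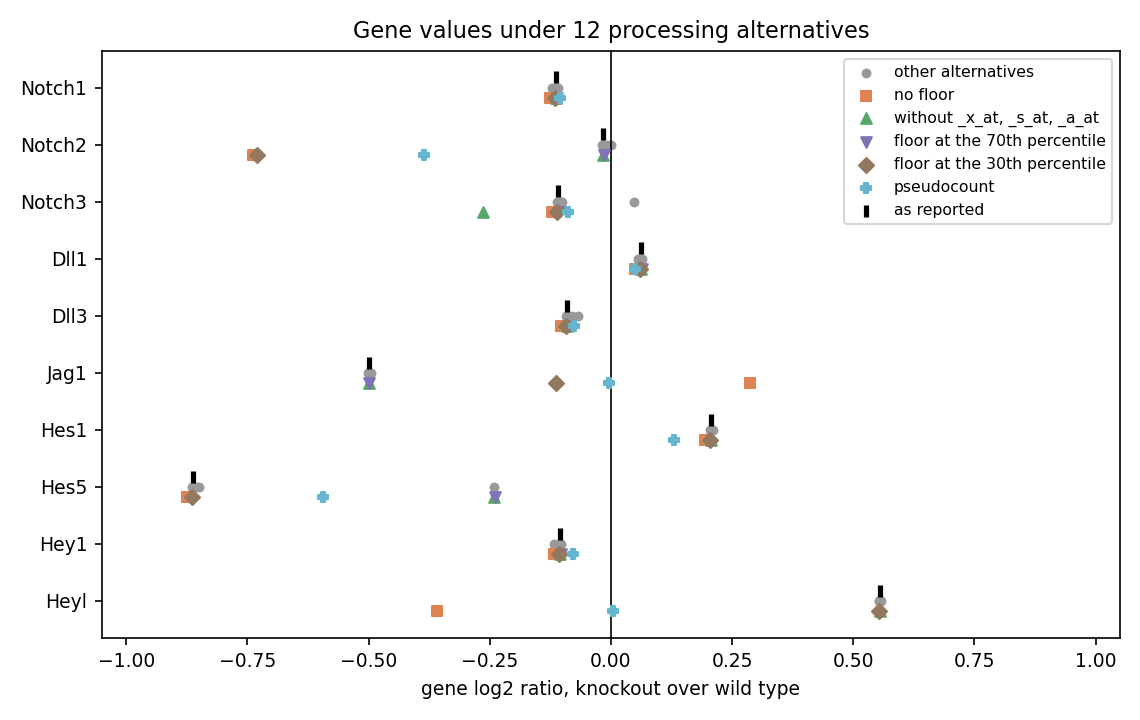
Gene log2 ratios, knockout over wild type, of the 10 members as reported (black bars) and under the processing alternatives. Notch1, Dll1, Dll3, Hes1, Hes5 and Hey1 keep their sign under every alternative that gives a value, and Notch2, Notch3, Jag1 and Heyl do not.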

How the data were processed

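The deposited values are MAS5 signal intensities on a linear scale; the submitters' processing notes name MAS5, with the version not given in the sources used here. The authors had scaled the arrays: within a design, the means after trimming 2% at each end differed by less than 1 unit. Per the labels' protocols, total RNA from RNeasy columns was turned into biotin-labelled cRNA without amplification. Per the file headers, both genotypes of a design went onto their arrays on 1 day. MOE430A and MOE430B were run on 2 days, so every ratio is within 1 day.

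The 64 controls of each design were dropped. The medians subtracted in centring were -0.0033 on MOE430A and -0.0014 on MOE430B. Genes were summarised as the mean ratio of their measured probe sets, whichever design held them. Where 1 sample passed the floor and the other did not, the brighter signal divided by the floor gave a bound. Of these bounds, that of Notch2 alone was set beside the bounds of other probe sets. Gene names came from the platform annotation, and gene identifiers in a RefSeq table of GRCm38.p6 changed no symbol. Members are named with every probe set; of each list of other pathway or proneural genes, up to 6 genes at least 0.5 from 0, or else the 3 farthest, and genes passing the floor in 1 sample with a bound of at least 2-fold, read here as any probe set. Cell type markers fell outside that rule, and those printed by name were picked with their signals known. The members and lists were chosen with earlier results of these data known. The procedure was tested on simulated data in which 200 genes changed by known amounts. All probe sets of a gene changed alike there, so disagreement between probe sets was not tested. The number of arrays limits the precision. Software was Python 3.11.15 with matplotlib 3.10.9, statsmodels 0.14.6, scipy 1.17.1, pandas 2.3.3 and numpy 2.4.6.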

Additional observations from a re-analysis of the deposited data

How the results depend on the processing

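Values were recomputed with the floor moved to the 30th or 70th percentile of signals or dropped, with the floor added as a pseudocount, without centring, after quantile or lowess normalization (span 0.3), with the brightest probe set or the median for the mean, without probe sets ending in _x_at, _s_at or _a_at, and per design. The members' median lay between -0.12 and -0.053 under 11 of these, and 0 members reached 2-fold under all 12; on MOE430B alone only Jag1 was measured, so no median was taken. The median of other pathway genes lay between -0.067 and -0.016. That of the proneural list, 0.062, was -0.092 with the brightest probe set, -0.020 on MOE430A alone and 0.60 on MOE430B alone, where 4 genes were measured. Of 108 member values, 12 moved by more than 0.33, the pooled SD between a gene's probe sets, divided by the square root of their number, and 4 changed sign. These were Jag1 (0.29) and Heyl (-0.36) with no floor, Notch2 (0.0002) with quantile normalization and Notch3 (0.048) with the brightest probe set. Other probe sets entered for Jag1 and Heyl, and 1 of 2 for Notch3; for Notch2 the cause was not tested. Hes5 ranged from -0.87 to -0.24. No paired analysis was possible because each genotype had 1 RNA sample.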
